A study of Arabidopsis thaliana with 6 samples.

Results

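MicroRNAs are numbered in the order in which they were registered, so those of Arabidopsis thaliana with a high number are late discoveries, most of them found by deep sequencing. The 41 entries described here are those of the deposited tables whose first name has a miR number above 900, with all arms kept and no minimum abundance. They are 41 of 197 entries in all and carry 44 miRNA names, with 36 numbers among the first names. The rule left out miR2111, miR5026, miR5028 and miR5637 (6 entries). The rule is written in names only, but miR5637 and miR5028 had been set aside as entries that rise in aar2-1 in these same data, so it is not free of measured values: counts of entries that rose are lowered by it.

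The small RNA libraries came from seedlings aged 14 days, 3 biological replicates of WT (wild type) and 3 of the mutant aar2-1. All seedlings grew on an MS-based medium under a cycle of 16 h light and 8 h dark, and their RNA, extracted with TRI Reagent, went into libraries made with a NEBNext small RNA kit. AAR2 belongs to a protein family whose yeast and animal members help to assemble a spliceosome subunit. The labels do not describe the aar2-1 allele or its background beyond the name, and the tables hold miRNAs only, so the AAR2 transcript was not checked here. The comparison asks which of the late-registered miRNAs accumulate to another level in the mutant.

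In plants, a miRNA is cut from a hairpin in a longer transcript, usually by the Dicer enzyme DCL1. It is loaded into an Argonaute protein, which then silences transcripts that pair with it. A hairpin can release a mature strand from its 5p arm, its 3p arm or both. Late-registered miRNAs are typically found in one plant species or its close relatives, are scarce, and often come from long inverted repeats that are young in evolutionary terms. For most of them no function is settled, and none is assumed below.

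The mature sequences below are those the results turn on: the entries that were lower in aar2-1 past the test, those that departed from the rest of the table after rescaling, and miR8175 and miR5020b, which are described for their sequence or their rise. They are RefSeq sequences on TAIR10.1, written 5′ to 3′, with bases 2 to 8, the seed, in capitals. Plant miRNAs pair with their targets along most of their length, so the seed serves here only to compare the sequences.
miR3932b-5p: uUUGACGUgcucgaucugcuc
miR5996: uGACAUCCagauagaagcuuug
miR5654-3p: uGGAAGAUgcuuugggauuuauu
miR5995b and miR5595a: aCAUAUGAucugcaucuuugc
miR5012: uUUUACUGcuacuuguguucc
miR1886.2: uGAGAUGAaaucuuugauugg
miR3434-5p: aCUUGGCUgauucuauuauu
miR5651: uUGUGCGGuucaaauaguaac
miR1888a: uAAGUUAAgauuugugaagaa
miR3440b-3p: uGGAUUGGucaagggaagcgu
miR5663-5p: aGCUAAGGauuugcauucuca
miR5663-3p: uGAGAAUGcaaauccuuagcu
miR2112-3p: cUUUAUAUccgcauuugcgca
miR5642a and miR5642b: uCUCGCGCuuguacggcuuu
miR5020b: aUGGCAUGaaagaaggugaga
miR8175: gAUCCCCGgcaacggcgcca
No 2 of these lines share a seed. Among all 41 entries, the only different sequences with a common seed were miR5640 and miR1886.1.

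The 41 mature sequences look like those of the other 156 entries in length and first base. Of them 31 are 21 bases long (75.6%, against 78.2% of the other entries), 4 have 20 bases, 3 have 22, 2 have 23 and 1 has 24. A first U, the base that favours loading into AGO1, is carried by 25 (61.0%, against 60.3%). Their median GC content was 38.1%, against 42.9% in the other entries. The 39 annotated hairpins run from 59 to 500 bases, with a median of 149.

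The 44 annotated places of these miRNAs lie in varied surroundings. On the same strand, 17 are intergenic, 12 lie in an intron, 10 overlap a UTR exon of a protein-coding gene and 5 overlap an exon of a non-coding RNA or a transcribed pseudogene. A mature sequence matched the nuclear genome exactly at 1 place for 33 entries and at several for 8, and reads of the latter cannot be assigned to one place. The sequences of miR5663-5p and miR5663-3p are exact reverse complements of each other, so each arm also matches the opposite strand of the other arm.

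All 6 libraries held few reads of these miRNAs. The values are taken as RPM (reads scaled to a common library size). On that reading 1 read was worth 0.0868 to 0.142 RPM, which implies denominators of 7062198 to 11524176 reads. The 41 entries summed to 1341, 1545 and 1312 reads in WT replicates 1 to 3 and to 451, 192 and 277 reads in aar2-1 replicates 1 to 3. They made up 0.269% to 0.342% of the miRNA abundance in WT and 0.131% to 0.171% in aar2-1. A listed 0 allows up to 3 reads, or 0.260 to 0.425 RPM depending on the library. Such limits and the intervals below cover counting error only.

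The summed abundance of the 41 entries was 143, 158 and 154 RPM in WT and 39.1, 27.2 and 31.5 RPM in aar2-1. The means were 152 ± 7.91 and 32.6 ± 6.05 RPM (SD, n = 3 each), a 4.66-fold difference, and the genotypes did not overlap. A single entry, miR3932b-5p, supplied 50.7% to 59.9% of this sum in WT and 2.08% to 3.97% in aar2-1. Without miR3932b-5p the sums were 69.3 ± 5.30 and 31.6 ± 5.87 RPM (SD, n = 3 each), 2.19-fold lower in aar2-1. Without miR5996 as well they were 56.3 ± 4.93 and 31.5 ± 5.85 RPM, 1.79-fold lower. Over all 197 entries the sum was 2.28-fold lower in the mutant. No test was made on these sums. The libraries are of bulk tissue, in which fewer cells of a type and less RNA per cell cannot be told apart.

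**Figure D1:**
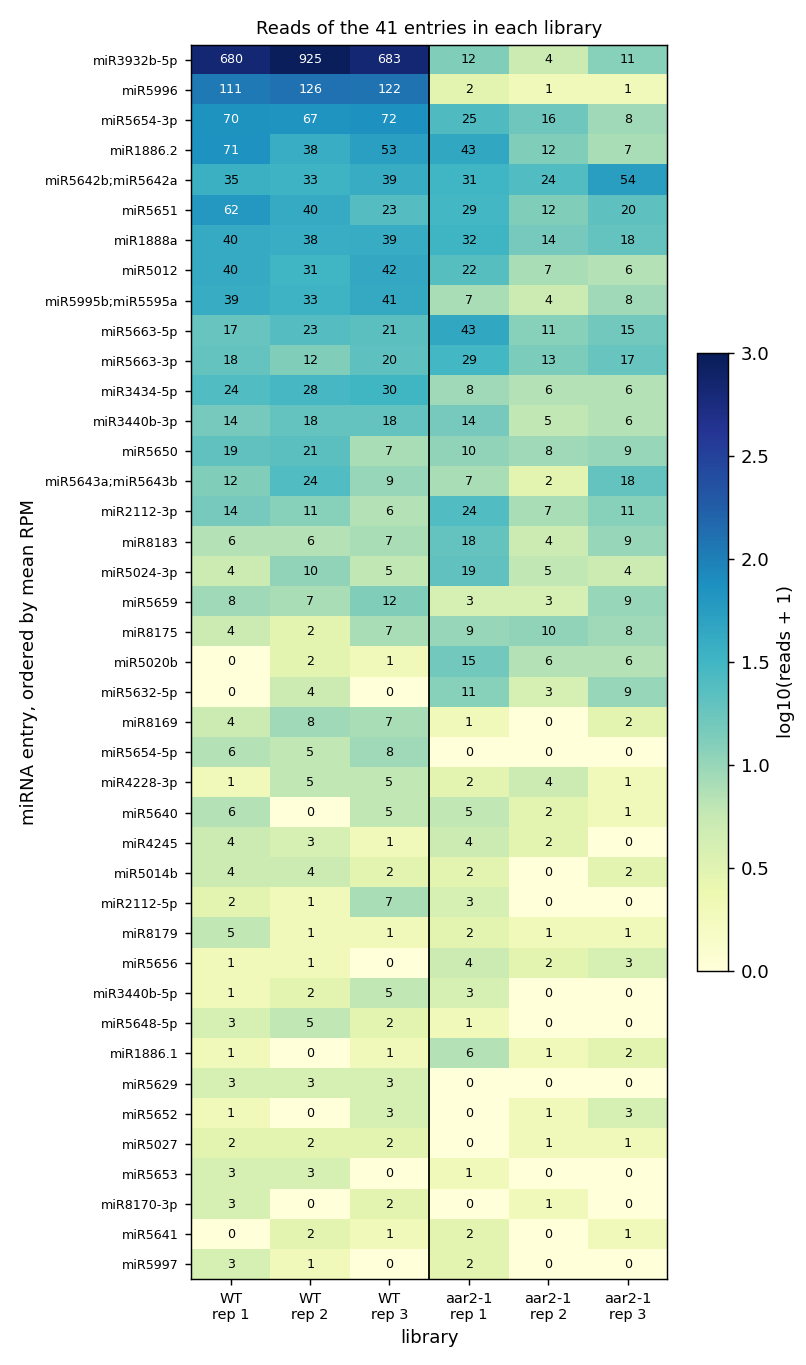
Reads of each of the 41 entries (rows, ordered by mean RPM) in the 6 libraries (columns), with the number of reads printed and the colour on a log10(reads + 1) scale. The top rows, miR3932b-5p and miR5996, change from 111 or more reads in WT to at most 12 in aar2-1, and most rows in the lower part hold single-digit numbers in every library.

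Detection was incomplete in both genotypes and lower in aar2-1. At least 1 read was present for 38, 37 and 37 of the 41 entries in WT and for 36, 31 and 32 in aar2-1. Of the other 156 entries, 153, 152 and 153 had reads in WT and 153, 142 and 140 in aar2-1. Thinned to the smallest denominator, WT would show 35.4 to 36.6 of the 41 entries and aar2-1 30.7 to 33.7. This equalizes the library denominators and not the miRNA reads, which numbered 449241 to 497904 in WT and 146758 to 318995 in aar2-1. Every library of both genotypes held reads of 22 of the 41 entries. A further 9 were found in all WT libraries and missed in at least 1 of aar2-1, whereas 5 were found in all aar2-1 libraries and missed in at least 1 of WT. Between 20 and 24 of the 41 entries had 1 to 9 reads in a given library.

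No entry was without reads in all 6 libraries, and none was found in aar2-1 alone. Both entries found in every WT library and in no aar2-1 library were scarce. The entry miR5654-5p had 6, 5 and 8 reads in WT and 0 in each aar2-1 library. With the 3 mutant libraries together set at a floor of 3 reads, it was 6.28-fold lower. The floor leaves out the counting error of the WT reads, and the 95% counting interval of the ratio began at 4.63. The entry miR5629, from a UTR exon of NDL2, had 3 reads in each WT library and 0 in each of aar2-1. With 9 reads against a floor of 3 over the group, it was 2.97-fold lower, and the 95% counting interval began at 1.96.

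Abundance was tested across the whole table for entries with a mean of at least 1 RPM over the 6 libraries, which admitted 131 entries and 16 of the 41. The limma test was two-sided, on log2(RPM + 1), and its p-values were adjusted over the 131 entries by the Benjamini-Hochberg method (threshold 0.05). The replicates are called biological, with no word on separate sowings, so the p-values measure the spread between these libraries. Of the 16, 10 fell (62.5%) and 0 rose, and 6 did not pass; no entry of the 16 with a higher mean reached an unadjusted p of 0.05. Of all 131 entries 61.1% passed as lower and 2.29% as higher, so the share of the 16 that fell is close to that of the table. The filter takes the mean of both genotypes, so an entry can be admitted through WT alone. Among those that fell, miR3932b-5p, miR5996, miR5995b/miR5595a, miR3434-5p and miR3440b-3p had aar2-1 means under 1 RPM (0.143 to 0.952 RPM). The shares that fell are counts after this filter. Nothing is read from the 0 that rose, since the rule had left out miR5637, which passed as higher (log2 change 0.85, SE 0.22, limma adjusted p 0.00306), and miR5028, which did so without a filter on low entries (0.71, adjusted p 0.00375). The 16 had a median log2 change of -0.71, against -0.83 for all 131. The RPM of the genotypes did not overlap for the same 10 entries, each lower in aar2-1, against 59.5% of the tested entries.

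Because most of the table is lower in aar2-1, each change was also read relative to the table. For this the RPM of a library were divided by its median ratio over the 69 entries of at least 10 RPM, which raised the median log2 change of all 131 entries by 0.84, to 0.014. On this scale, called relative below, 4 of the 16 were lower and 4 were higher past the threshold, against 20.6% and 16.8% of all 131. The 8 others did not pass. Fits that left out 1 library were made on the deposited scale only, so no relative call was checked in that way. The files do not hold the other small RNAs of the denominator, so less miRNA and more of other small RNA cannot be told apart in the shared shift.

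**Figure D2:**
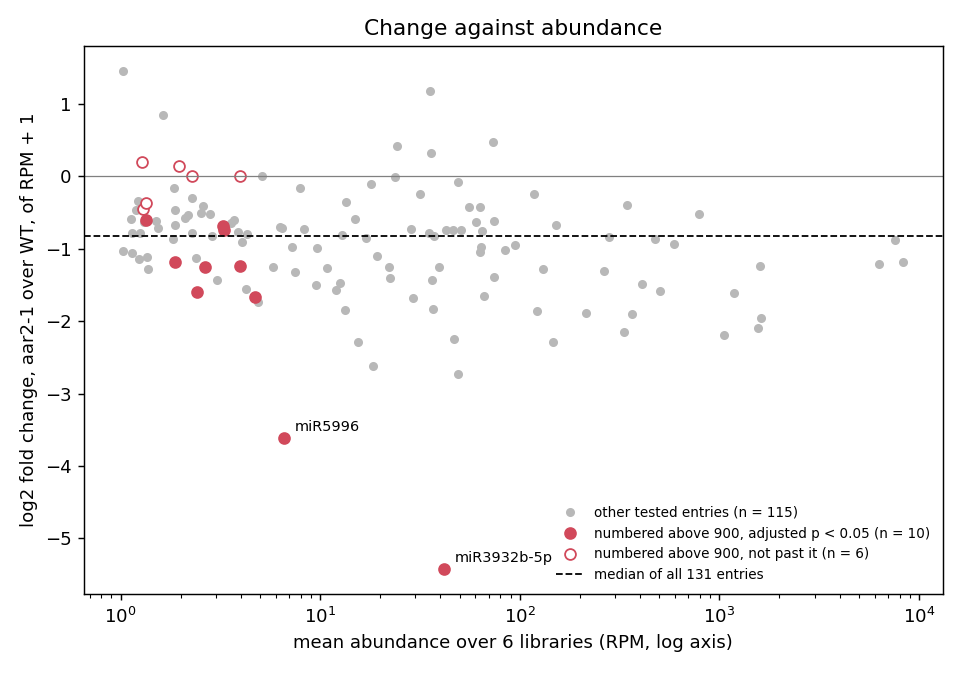
Fold change on the log2(RPM + 1) scale against mean abundance for the 131 tested entries. The late-registered entries are coloured, filled where the adjusted p is under 0.05, and the dashed line marks the median of all entries at -0.83; miR3932b-5p and miR5996 lie below all other points and the remaining 14 lie within the cloud.

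The largest falls among the 131 tested entries, as log2 changes, were those of miR3932b-5p and miR5996. The entry miR3932b-5p (mature sequence at 7890695 to 7890715 on the minus strand of chromosome 4, in a UTR exon of AT4G13575, a gene for an uncharacterized protein) had 680, 925 and 683 reads in WT against 12, 4 and 11 in aar2-1. This is 82.6 ± 11.3 against 0.952 ± 0.350 RPM (SD, n = 3), 86.7-fold lower, with a log2 change of -5.43 (SE 0.30, limma adjusted p 9.45e-10). It was the most abundant of the 41 in every WT library, and its highest mutant value was 1.25 RPM. On the relative scale its log2 change was -4.60.

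The entry miR5996 (7882848 to 7882869, minus strand of chromosome 4, in a UTR exon of UNE15, AT4G13560, a late embryogenesis abundant family protein) had 111, 126 and 122 reads in WT against 2, 1 and 1 in aar2-1. The means were 13.0 ± 1.25 and 0.143 ± 0.030 RPM (SD, n = 3). The pooled reads gave a ratio of 89.0 with a 95% counting interval of 34.4 to 328 (exact binomial). The log2 change was -3.61 (SE 0.25, limma adjusted p 8.54e-09), and -3.04 on the relative scale. Both entries passed in each of the 6 fits that left out 1 library, and the WT and aar2-1 values of each lie far apart.

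The hairpins of these entries are neighbours. MIR5996 (chromosome 4, 7882765 to 7882889) and MIR3932b (7890570 to 7890719) both lie on the minus strand, 7.68 kb apart, and no other pair of hairpins of the 41 entries with unrelated sequences lies within 40 kb. Their sequences are not copies of each other: the best local alignment of the hairpins in the same orientation spans 11 bases. The table holds 10 entries within 50 kb of MIR3932b, and they allow the change to be followed along the chromosome. Between the 2 hairpins lies MIR841a (7885251 to 7885462, minus strand), whose entries are not among the 41. Its 3p entry miR841a-3p had 18, 13 and 11 reads in WT and 0 in every aar2-1 library. With the group set at a floor of 3 reads, it was 13.9-fold lower. The 5p entry miR841a-5p had 7 reads in each WT library and again 0 in every aar2-1 library. By the same floor it was 6.94-fold lower. Neither ratio allows for the counting error of the WT reads. The 4 entries annotated to the 3 hairpins in this stretch of 7955 bases had means of 0 to 0.952 RPM in the mutant. The ends of the stretch were set by miR5996 and miR3932b-5p, chosen for their large falls. Only the entries of MIR841a were therefore free to differ.

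The table entries at lower coordinates, outside the stretch, changed far less. The hairpin MIR397b ends 4004 bases before MIR5996, on the same strand, and its copper-responsive miRNA miR397b had 125, 41 and 58 reads in WT against 93, 30 and 16 in aar2-1. This is 8.12 ± 4.70 against 4.71 ± 3.15 RPM (SD, n = 3), a log2 change of -0.71 that did not pass (limma adjusted p 0.14) and was 0.18 on the relative scale. The entry miR857, 12.5 kb from miR3932b-5p, had 4.42 ± 0.508 and 2.74 ± 1.80 RPM (SD, n = 3; log2 change -0.64, limma adjusted p 0.0897), and 0.14 on the relative scale. The 4 entries farther on, 43.9 to 46.1 kb away, had means 1.43-fold to 3.14-fold lower, and of them miR863-5p passed (limma adjusted p 0.00701), as did miR863-3p, which is under 1 RPM, in the fit without a filter (adjusted p 0.0205). At higher coordinates the next table entry comes from MIR852, 445 kb away, so these data do not bound the stretch closely there. The genotypes of miR397b and miR857 overlap, in contrast to the 4 entries of the stretch. The tables hold small RNA only, and the genomic DNA of this stretch in either line was not examined.

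**Figure D3:**
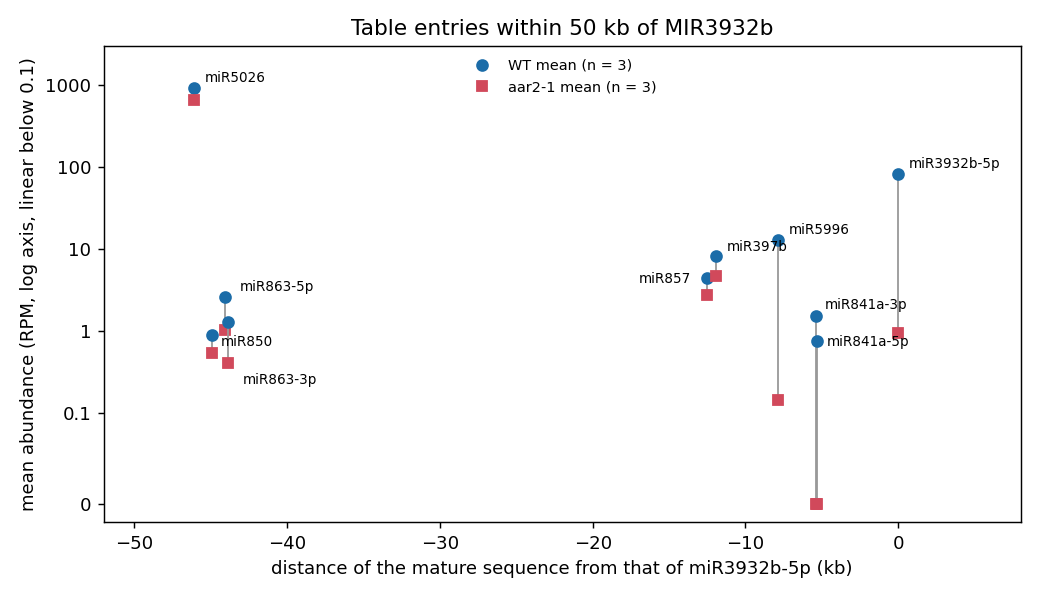
Mean abundance in WT (circles) and aar2-1 (squares), n = 3 each, of the 10 table entries within 50 kb of MIR3932b, by distance from the mature sequence of miR3932b-5p in kb; the axis is logarithmic and linear below 0.1 RPM. The 4 entries from miR5996 to miR3932b-5p drop to 0.952 RPM or less, and the 6 entries farther to the left drop by at most 3.14-fold.

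The reads of miR3932b-5p, those of WT as well as the few that aar2-1 retained, cannot be tied to MIR3932b alone. The sequence also matches chromosome 4 exactly at 2178984 to 2179004 on the plus strand, beginning 16 bases before the annotated start of MIR3932a, a hairpin 94.3% identical to MIR3932b over 123 aligned bases. The entry miR841a-3p likewise has a second exact match at 2184422 to 2184442, whereas miR5996 and miR841a-5p match the genome at 1 place each.

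Next in size among the 16, at ranks 19 and 22 of the 131 from the lowest, came miR5654-3p and the shared entry of miR5995b and miR5595a, both of which also stayed lower on the relative scale. The entry miR5654-3p (11786348 to 11786370, plus strand of chromosome 1, in a UTR exon of AT1G32583, annotated as a tapetum determinant protein) had 70, 67 and 72 reads in WT against 25, 16 and 8 in aar2-1. Its means were 7.6 ± 0.806 and 1.78 ± 0.757 RPM (SD, n = 3), 4.27-fold lower, with a log2 change of -1.67 (SE 0.29, limma adjusted p 1.73e-04) and -0.86 relative (adjusted p 0.00845). The WT libraries were alike, and aar2-1 replicate 3 was the lowest of the mutant libraries.

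The entry of miR5995b and miR5595a had 39, 33 and 41 reads in WT against 7, 4 and 8 in aar2-1. This is 4.12 ± 0.720 against 0.694 ± 0.187 RPM (SD, n = 3), 5.94-fold lower, with a log2 change of -1.59 (SE 0.24, limma adjusted p 4.51e-05) and -0.90 relative (adjusted p 0.00418). The names belong to opposite strands of 1 inverted repeat on chromosome 2 (10026910 to 10027050), so their reads cannot be told apart. On the minus strand the mature sequence overlaps a UTR exon of MES6, a methyl esterase gene, and on the plus strand it is intergenic. None of its 3 mutant values came near the WT range.

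A further 3 entries fell with log2 changes of -1.19 to -1.25, below the table median of -0.83, and were not past the threshold on the relative scale (limma adjusted p 0.0645 to 0.160). The intergenic miR5012 (8432747 to 8432767, plus strand of chromosome 2) had 40, 31 and 42 reads in WT against 22, 7 and 6 in aar2-1, 3.46-fold lower by mean RPM (log2 change -1.25, SE 0.27, limma adjusted p 0.00117; relative -0.55). The entry miR1886.2, from a UTR exon of AT2G37160, a WD40 repeat protein gene, had 71, 38 and 53 reads in WT against 43, 12 and 7 in aar2-1, 2.84-fold lower (log2 change -1.24, SE 0.34, limma adjusted p 0.00594; relative -0.47). The entry miR3434-5p, in an intron of alpha-ADR (AT5G22770), had 24, 28 and 30 reads in WT against 8, 6 and 6 in aar2-1, 4.03-fold lower (log2 change -1.19, SE 0.22, limma adjusted p 3.47e-04; relative -0.54). For miR1886.2 the genotypes nearly met, with WT replicate 2 and aar2-1 replicate 1 closest, and for miR3434-5p the values of each genotype lay close together. These 3, like the 4 entries described before them, passed in each fit that left out 1 library.

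The last 3 of the 10 fell less, and their calls depend on single libraries. The intergenic miR5651 (chromosome 3, 17178489 to 17178509) had 62, 40 and 23 reads in WT against 29, 12 and 20 in aar2-1, a log2 change of -0.74 (SE 0.29, limma adjusted p 0.0377). Its lowest WT value, 2.70 RPM, lay just above its highest aar2-1 value, 2.52 RPM. Without WT replicate 1 or aar2-1 replicate 2 its adjusted p was 0.230 or 0.164, and without a filter on low entries it was 0.0652.

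The entry miR1888a, in an intron of AT5G21100, had 40, 38 and 39 reads in WT against 32, 14 and 18 in aar2-1 (log2 change -0.69, SE 0.25, limma adjusted p 0.0270). Its adjusted p was 0.0896, 0.0924 and 0.111 without WT replicate 1, WT replicate 3 and aar2-1 replicate 2. The WT values of miR1888a were the most even of the 3, from 3.90 to 4.59 RPM. The entry miR3440b-3p, within the transcribed pseudogene AT3G18145, had 14, 18 and 18 reads in WT against 14, 5 and 6 in aar2-1 (log2 change -0.60, SE 0.22, limma adjusted p 0.0281). It did not pass without WT replicate 3, aar2-1 replicate 2 or aar2-1 replicate 3 (adjusted p 0.0788, 0.111 and 0.0977). On the relative scale the log2 changes of miR5651, miR1888a and miR3440b-3p were 0.074, 0.12 and -0.023, so the sign of the first pair turned.

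**Figure D4:**
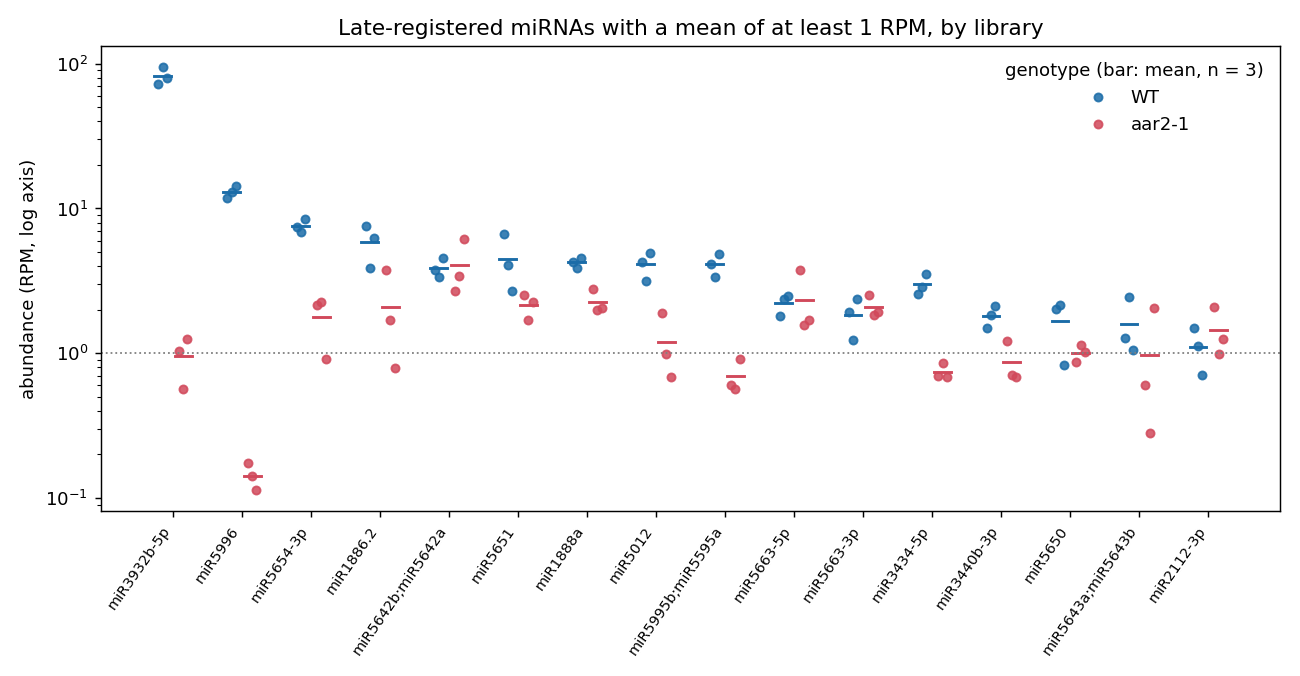
Abundance in RPM (log axis) of the 16 late-registered entries with a mean of at least 1 RPM, with 1 point per library and a bar at the mean of 3. The genotypes are separate for 10 entries, by the widest margin for miR3932b-5p and miR5996, and overlap for the remaining 6.

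Among the 6 without a call, 4 had log2 changes of -0.00095 to 0.20 in the deposited values while most of the table was lower, and these were the ones higher on the relative scale. The entry miR5642a/b had 35, 33 and 39 reads in WT against 31, 24 and 54 in aar2-1, or 3.90 ± 0.618 and 4.07 ± 1.82 RPM (SD, n = 3). Its log2 change was -0.00061 (SE 0.30, limma adjusted p 0.998) as deposited and 0.87 (SE 0.30, adjusted p 0.0204) relative. The aar2-1 values lie on both sides of the WT values, with replicate 3 the highest of all 6. The sequence matches 3 places in the genome, among them the hairpins MIR5642b near the start of chromosome 2 and MIR5642a on chromosome 3, which are 98.4% identical.

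Both arms of MIR5663 (chromosome 1, 18686855 to 18686966, minus strand) were among these 4. The entry miR5663-5p had 17, 23 and 21 reads in WT against 43, 11 and 15 in aar2-1, and miR5663-3p had 18, 12 and 20 in WT and 29, 13 and 17 in aar2-1. Their log2 changes were -0.00095 (SE 0.27) and 0.14 (SE 0.24) as deposited, with limma adjusted p of 0.998 and 0.604, and 0.71 and 0.85 relative, with adjusted p of 0.0213 and 0.00539. In both, aar2-1 replicate 1 held the highest value. The 5p arm is in an exon of the lncRNA gene AT1G07637, and both arms lie opposite an intron of AT1G50440.

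The last of these 4, miR2112-3p, comes from an intron of SPPL4, a signal peptide peptidase-like gene. It had 14, 11 and 6 reads in WT against 24, 7 and 11 in aar2-1, or 1.11 ± 0.395 and 1.44 ± 0.570 RPM (SD, n = 3). The log2 change was 0.20 (SE 0.24, limma adjusted p 0.448) and 0.78 relative (adjusted p 0.00850). The genotypes overlapped on the deposited scale.

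Both remaining entries passed on neither scale, and each turned on 1 library. The entry miR5643a/b, whose sequence matches 15 places in the genome, had 12, 24 and 9 reads in WT against 7, 2 and 18 in aar2-1 (log2 change -0.46, SE 0.30, limma adjusted p 0.179; relative 0.12). Without aar2-1 replicate 3, its highest mutant library, it passed as lower (log2 change -0.82, adjusted p 0.0188). The entry miR5650, in an intron of EDA4, had 19, 21 and 7 reads in WT against 10, 8 and 9 in aar2-1 (log2 change -0.37, SE 0.24, limma adjusted p 0.180; relative 0.24). Without WT replicate 3, its lowest WT library, it passed as lower (log2 change -0.62, adjusted p 0.0424).

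**Figure D5:**
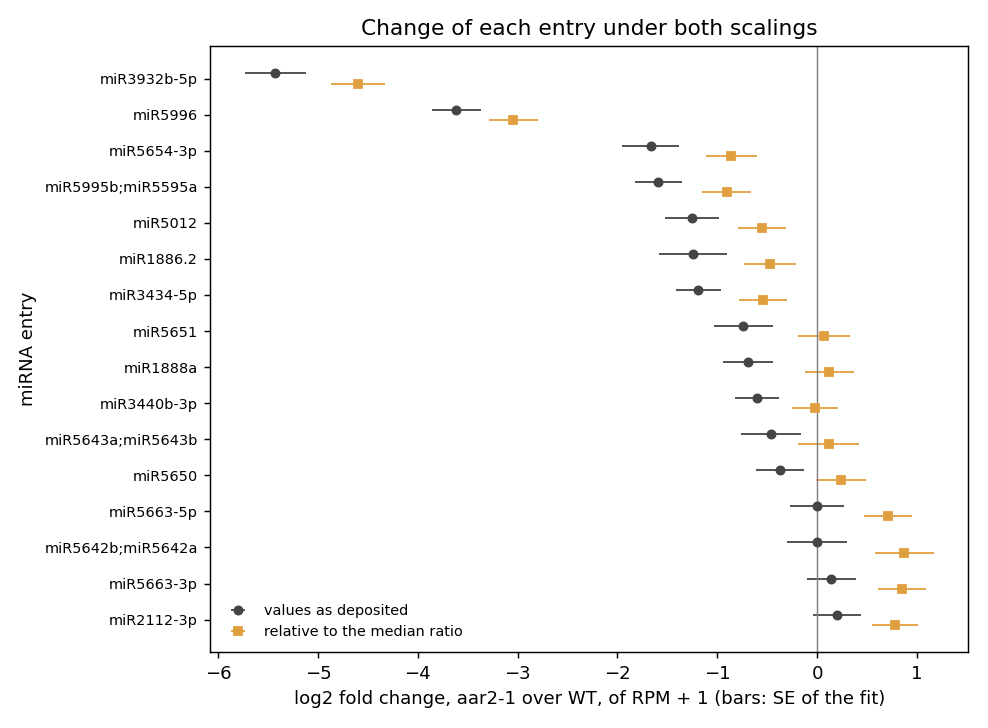
Log2 fold change of RPM + 1, aar2-1 over WT, for the 16 tested entries with the values as deposited (circles) and relative to the median ratio of the table (squares); bars are the SE of the limma fit. Rescaling moves every entry to the right, leaves miR3932b-5p, miR5996, miR5654-3p and miR5995b/miR5595a lower past the threshold, and puts miR5663-5p, miR5663-3p, miR5642a/b and miR2112-3p above it.

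Where a hairpin had an entry for each arm, the arms were compared by the log2 ratio of 5p to 3p. A separate limma fit was made over all such hairpins. With at least 1 RPM in both arms, 42 hairpins could be tested, of which 40.5% changed, and MIR5663 was the only one of the late-registered miRNAs. Its ratio did not pass (log2 difference -0.14, SE 0.26, limma adjusted p 0.673; 0 hairpins of the 41 entries passed, and the unadjusted p was 0.593). The 5p arm held 61 of 111 reads in WT (55%, 95% exact interval 45.2% to 64.4%) and 69 of 128 in aar2-1 (53.9%, 44.9% to 62.7%). Each sequence also matches the opposite strand of the other arm, so these shares need not measure the arm use of the hairpin. The even split of reads set MIR5663 apart from the 3 hairpins with a scarce arm.

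In those 3, the 3p arm prevailed in both genotypes. The 5p arm of MIR5654 held 19 of 228 reads in WT (8.33%, 5.09% to 12.7%) and 0 of 49 in aar2-1 (95% exact upper limit 7.25%; a floor of 3 reads is 6.12%). The 5p arm of MIR2112 held 10 of 41 reads in WT (24.4%, 12.4% to 40.3%) and 3 of 45 in aar2-1 (6.67%, 1.40% to 18.3%), and that of MIR3440b 8 of 58 (13.8%, 6.15% to 25.4%) and 3 of 28 (10.7%, 2.27% to 28.2%). Without the filter, where 36.7% of 60 hairpins changed, MIR5654 passed (log2 difference 0.91, SE 0.24, limma adjusted p 0.0224). Its 5p arm was at 0 in aar2-1, where the added 1 RPM fixes that side of the ratio, so the sign of this difference is opposite to that of the read shares and no change of arm use is read from it.

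The 25 entries under 1 RPM had 0 to 19 reads per library and 460 reads in all over the 6 libraries. By mean RPM 17 of them were lower and 8 higher in aar2-1. The genotypes did not overlap for 6 that were lower and 4 that were higher, miR5027 and miR5014b among the former without a call in any fit described here. Over all 197 entries the corresponding shares were 50.8% and 5.08%, with the abundant entries included. These low entries were tested only in the fit without a filter, in which 46.2% of the 197 entries passed as lower and 3.55% as higher. There, 4 of the 25 passed as lower and 3 as higher. The fitted changes of such entries understate ratios, because 1 RPM is added to values below it.

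The 4 that fell in that fit were miR5654-5p, miR8169, miR5629 and miR5648-5p. The intergenic miR8169 had 4, 8 and 7 reads in WT against 1, 0 and 2 in aar2-1, a pooled ratio of 6.28 (95% counting interval 1.85 to 33.1; limma adjusted p 0.00597). The intergenic miR5648-5p had 3, 5 and 2 reads in WT against 1, 0 and 0 in aar2-1 (adjusted p 0.0182, and 0.0794 or 0.0769 without aar2-1 replicate 2 or 3). The adjusted p of miR5654-5p was 9.00e-04 and that of miR5629 was 0.00767. On the relative scale the adjusted p was 0.00396 for miR5654-5p, 0.0495 for miR5629, 0.130 for miR8169 and 0.0946 for miR5648-5p, so the last pair did not pass. Both arms of MIR5654 were thus lower on either scale.

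The 3 that rose in that fit were miR5020b, miR5632-5p and miR5656. The intergenic miR5020b (6787108 to 6787128, minus strand of chromosome 4) had 0, 2 and 1 reads in WT against 15, 6 and 6 in aar2-1, or 0.108 ± 0.103 and 0.944 ± 0.321 RPM (SD, n = 3). The pooled reads were 9.08-fold higher, with a 95% counting interval of 2.79 to 46.8 (log2 change 0.80, SE 0.16, limma adjusted p 0.00195; relative 1.10). It passed in each fit that left out 1 library. It was also the most changed of the rising entries among the 25, and all 3 mutant values lay above all WT values.

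The entry miR5632-5p, in an intron of AT2G19390, had 0, 4 and 0 reads in WT against 11, 3 and 9 in aar2-1, a pooled ratio of 5.80 (1.98 to 23.1; log2 change 0.67, limma adjusted p 0.0123). Its adjusted p was 0.0573 or 0.0783 without WT replicate 1 or 3. The entry miR5656, in an intron of AT1G05780, had 1, 1 and 0 reads in WT against 4, 2 and 3 in aar2-1 (log2 change 0.31, limma adjusted p 0.0398). Its pooled ratio of 4.54 had a counting interval of 0.940 to 43.2, which includes no difference, and the call was lost without WT replicate 3 or any single aar2-1 library (adjusted p 0.0508 to 0.129). On the relative scale all 3 passed again, and 7 of the 25 were higher and 2 lower past the threshold, against 15.2% and 14.2% of the 197 entries.

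The partner of miR1886.2 went another way. The annotated miR1886.1 begins 9 bases before miR1886.2 in the same arm of MIR1886 and overlaps it. It had 1, 0 and 1 reads in WT against 6, 1 and 2 in aar2-1, a fitted log2 change of 0.26 (limma adjusted p 0.117; relative adjusted p 0.0258), where miR1886.2 fell. The genotypes did not overlap, but the pooled ratio of 4.54 had an interval of 0.940 to 43.2 on 11 reads in all.

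The entry miR8175 stands apart by its sequence. Its GC content of 75.0% was the highest of the 41, whose others reach 57.1%. Its first 17 bases occur in 22 annotated genes for tRNA-Asp, and the 3 bases that follow are CCA, the end that is added to a tRNA after transcription. No other of the 41 sequences matched an annotated tRNA, rRNA, snRNA or snoRNA gene, also with up to 3 bases removed from its 3′ end. It had 4, 2 and 7 reads in WT against 9, 10 and 8 in aar2-1, or 0.485 ± 0.313 and 1.04 ± 0.336 RPM (SD, n = 3). The pooled ratio was 2.10 (1.04 to 4.42), the genotypes overlapped, and the fitted log2 change of 0.46 did not pass (limma adjusted p 0.0715) but was 0.94 relative (adjusted p 0.00800). Whether these reads come from the annotated hairpin or from tRNA was not tested.

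In all, 18 of the 25 entries under 1 RPM gave no call on the deposited scale. Among the better covered of them, miR8183, in an exon of the transcribed pseudogene AT3G30110, had 6, 6 and 7 reads in WT against 18, 4 and 9 in aar2-1. The entry miR5024-3p, in an intron of the amino acid permease gene AAP5, had 4, 10 and 5 reads in WT against 19, 5 and 4 in aar2-1. In both, aar2-1 replicate 1 was the highest library, the genotypes overlapped, and the entry passed as higher on the relative scale only (limma adjusted p 0.0149 and 0.0495). The intergenic miR5659 had 8, 7 and 12 reads in WT against 3, 3 and 9 in aar2-1 (log2 change -0.36, limma adjusted p 0.167), with overlap again. A difference that misses the threshold at such read numbers is not shown to be absent.

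Compared with the other classes of entries, the late-registered miRNAs were set apart by abundance rather than by how often they fell. Their median abundance over the 6 libraries was 0.526 RPM, against 1.23 RPM for the 67 entries numbered 400 to 900 and 23.7 RPM for the 83 entries numbered below 400. The test admitted 39.0%, 56.7% and 89.2% of these classes. Among the admitted, 62.5%, 50% and 67.6% fell, with median log2 changes of -0.71, -0.64 and -0.95 and relative medians of 0.025, 0.086 and -0.045. These are counts and medians of classes that differ in abundance, and no test was made between them. They also depend on the filter, which can admit an entry through WT alone.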

How the data were processed

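Each library came as 1 table of 197 miRNA entries. Per the submitters' processing notes, reads were handled with cutadapt and Bowtie on TAIR10; versions, size limits, the miRNA registry release and how multi-mapping reads were handled are not given in the sources used here. The deposited values are taken as RPM scaled by the authors: each of the 1182, divided by the lowest value above 0 in its library (taken as 1 read), came out whole within 0.001.

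All entries of at least 1 RPM on average were tested with limma 3.58.1 (R 4.3.3) on log2(RPM + 1), genotype as the factor, variance trend on abundance, Benjamini-Hochberg adjustment over 131 entries and a threshold of 0.05; the fit was tested on simulated data. Arm ratios had their own limma fit over 42 hairpins, without the variance trend. Intervals are exact binomial at 95%. Names (242 of 242 matched), sequences and positions are RefSeq's on TAIR10.1, counted from 1; the tables hold no positions. An edgeR or DESeq2 fit was planned and not made. The deposited values are taken as RPM, not counts. The 197 entries gave too few low values to check the recovery of reads to the standard set for a count test.

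Entries of at least 1 RPM are named with each library's reads, scarcer ones by detection pattern, shared hairpin or calls without a filter; miR8175, miR8183, miR5024-3p, miR5659 and the miR841a, miR397b and miR857 neighbours were named after their values were seen. The entries and lists were chosen with earlier results of these data known. Python 3.11.15, pandas 2.3.3, numpy 2.4.6, scipy 1.17.1, Biopython 1.88 and matplotlib 3.10.9 were used.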

Additional observations from a re-analysis of the deposited data

How the results depend on the processing

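Of the 16 tested late-registered entries, 10 passed as lower with the values as deposited, and 7 to 10 did across the 6 fits that left out 1 library. The number was 4 with the median-ratio factor and 1 with a mean of at least 10 RPM, where 1 entry could be tested. None passed as higher in the deposited values or with any library left out, whereas 4 did with the median-ratio factor. Without a filter, over all 41 entries, 13 passed as lower and 3 as higher, and those 3 are among the 25 under 1 RPM. The median log2 fold change of -0.71 was -0.98 and -0.37 with pseudocounts of 0.1 and 5 RPM, -0.22 over all 41 entries without a filter, -5.43 for the single entry of at least 10 RPM and 0.025 with the median-ratio factor, and ran from -0.82 to -0.63 with a library left out. The difference in summed abundance was -119 RPM, -58.2 RPM with the factor, -37.7 RPM without miR3932b-5p and -24.8 RPM without miR5996 as well, the last chosen after seeing the data; it ran from -124 to -116 RPM with a library left out. The difference in detected entries was -4.33 and ran from -5.83 to -3.33. Arm ratios gave 0 calls among late-registered hairpins, and 1 without a filter.

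Signs turned for 7 of the 16, among them miR1888a and miR5651, which passed as lower in the deposited values. With the median-ratio factor the log2 fold changes of miR5663-5p, miR5642a/b, miR5643a/b, miR1888a, miR5651 and miR5650 were 0.71, 0.87, 0.12, 0.12, 0.074 and 0.24. With a pseudocount of 5 RPM those of miR5663-5p and miR5642a/b were 0.012 and 0.012. With a library left out they ran from -0.28 to 0.16 for miR5663-5p, from -0.28 to 0.20 for miR5642a/b and from -0.022 to 0.27 for miR5663-3p. The cause was not tested.

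Libraries of WT and aar2-1 with the same replicate number share only that number: same-numbered libraries correlated at 0.49, 0.047 and -0.15 in their deviations from the genotype means, and 2 of 6 libraries correlated best with their own number. With the replicate block 10 entries passed as lower and 0 as higher, with the median at -0.71. Planned edgeR and DESeq2 fits were not run, because too few low values were at hand to check the recovery of reads to the standard set for a count test. At 0 to 19 reads per library, depth limits the values of entries under 1 RPM.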
